A study of Mus musculus with 12 samples.

Results

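The genes described are 10 transcription factors of the AP-1 family and the immediate early response: Fos, Fosb, Fosl1, Fosl2, Jun, Junb, Jund, Atf3, Egr1 and Maff. They were chosen by gene symbol from 53599 genes in the count table, and all 10 passed the filter on low counts that left 16210 genes to be tested. RNA was sequenced from cells sorted from the livers of mice that had received AAV8-TBG-Cre, a virus carrying Cre recombinase under a hepatocyte promoter, used for lineage tracing, so that EGFP marks cells of hepatocyte origin. From 1 week after the virus, all mice were fed 0.1% DDC (3,5-diethoxycarbonyl-1,4-dihydrocollidine), a compound that injures bile ducts, and cells were taken after 8 weeks. The study follows the stages of hepatocyte reprogramming toward a biliary identity. The early group was EGFP+ Cd24- Epcam-, the intermediate group EGFP+ Cd24+ Epcam- and the full group EGFP+ Cd24+ Epcam+. The BEC (biliary epithelial cell) group was EGFP- Epcam+. All 4 groups came from DDC-fed livers, so none shows uninjured liver. All 12 libraries, 3 in each group, are labelled WT. The age of the mice, the reporter allele and whether libraries came from separate mice are not given in the sources used here, so p-values measure the spread between these libraries only.

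AP-1 is a dimer of leucine zipper proteins, usually a Jun protein with a Fos, ATF or Maf relative, that binds short DNA elements in the control regions of its targets. Fos, Fosb, Jun, Junb, Atf3 and Egr1 are classic immediate early genes, whose transcription starts within minutes of growth factor, stress or injury signals without new protein synthesis. In liver they are known for their induction after injury and partial hepatectomy. They are also known to be induced by tissue dissociation and cell sorting.

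Promoter sequence was matched by symbol in a RefSeq table of build GRCm38.p6, which holds 8 of the 10 genes in 10 windows. The counts were made on another build, GRCm39 per the submitters' processing notes, so these coordinates apply to the sequences only. The 150 bases before the annotated start are shown for 4 of the 5 genes that differed by replicate number, as described further on, and for the Maff start that holds a full cyclic AMP response element. Capitals mark the letters TGACG (the core of that element, on either strand), TGACATCA (the AP-1 and ATF type element of the Jun promoter) and TGACGTCA (the full element, which contains TGACG).
Fos (chr12:85473740-85473889, plus strand): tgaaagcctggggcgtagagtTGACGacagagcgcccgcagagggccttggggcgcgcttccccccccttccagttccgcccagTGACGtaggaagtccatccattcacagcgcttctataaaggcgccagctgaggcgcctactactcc
Fosb (chr7:19310046-19310195, minus strand): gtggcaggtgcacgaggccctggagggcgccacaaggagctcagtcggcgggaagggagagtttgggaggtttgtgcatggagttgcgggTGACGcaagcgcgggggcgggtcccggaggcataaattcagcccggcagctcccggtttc
Jun (chr4:95052223-95052372, minus strand): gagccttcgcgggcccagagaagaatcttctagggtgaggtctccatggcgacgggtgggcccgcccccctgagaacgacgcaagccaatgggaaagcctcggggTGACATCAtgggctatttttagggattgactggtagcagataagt
Atf3 (chr1:191183334-191183483, minus strand): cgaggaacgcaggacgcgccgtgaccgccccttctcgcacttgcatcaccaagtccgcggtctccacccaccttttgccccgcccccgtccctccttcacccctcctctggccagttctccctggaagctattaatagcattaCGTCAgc
Maff (chr15:79347370-79347519, plus strand): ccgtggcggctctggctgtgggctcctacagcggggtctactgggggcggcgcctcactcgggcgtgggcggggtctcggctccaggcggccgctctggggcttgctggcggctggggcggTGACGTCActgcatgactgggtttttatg

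On either strand, TGACG lay in 6 of the 10 windows of these genes (those of Fos, Fosb, Junb and Atf3 and 2 of the 3 of Maff), against 13.3% of all 32851 windows of this length. Fos held it at 2 places, starting 129 and 66 bases before the start. TGACATCA lay in Jun and Maff (2.32% of all windows), in Jun 45 bases before the start. TGACGTCA lay in Maff only (1.36% of all windows). The AP-1 element TGANTCA (4.24% of all windows) and the CArG box, the serum response factor element (0.916%), had 0 matches in these windows. These counts describe letters in short windows and are not a measure of binding.

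Total counts per library ranged from 15112893 to 19731887. Levels are given as CPM, the counts of a gene scaled to a fixed library total, with TMM scaling, a factor per library that sets most genes level between libraries. The 10 genes together took between 0.154% and 0.774% of each library's counts. The sorted identities were present in the markers. The summed level of 12 hepatocyte markers lay between 105234 and 109534 CPM in early libraries and between 2105 and 2796 in BEC. That of 12 biliary markers lay between 1268 and 2274 CPM in early and between 15778 and 19384 in BEC. In bulk RNA, fewer cells of a type and less RNA per cell cannot be told apart.

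Per kilobase of merged exon (GENCODE M21), the gene with the highest mean level was Jun in early, intermediate and full and Fos in BEC. In early cells Jun stood at 286 ± 91.1 CPM per kilobase, Junb at 270 ± 21.6, Fos at 202 ± 76.8, Egr1 at 150 ± 41.3, Jund at 120 ± 19.4 and Atf3 at 86.9 ± 61.5 (SD, n = 3). Jun, Junb and Fos did not differ beyond their spread in that order. Fosb, Maff, Fosl2 and Fosl1 followed at 25.8 ± 19.8, 10.1 ± 1.84, 3.30 ± 0.841 and 0.175 ± 0.159 CPM per kilobase.

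**Figure D1:**
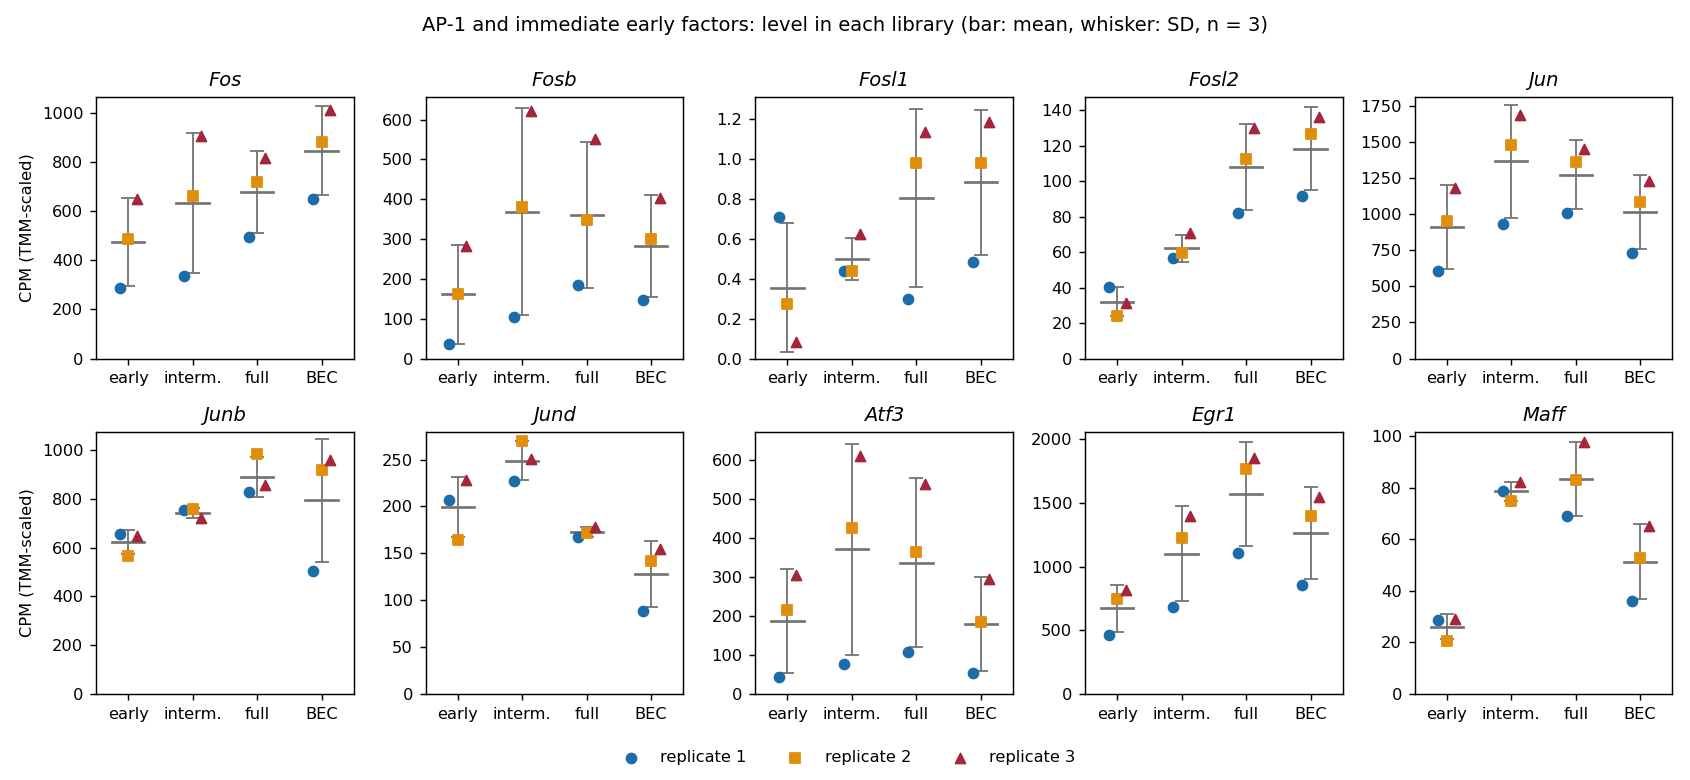
Level of each of the 10 genes in each of the 12 libraries, on the TMM-scaled CPM scale with its own axis per gene. Points are libraries, marked by replicate number, bars are group means and whiskers are SD (n = 3). Fos, Fosb, Jun, Atf3 and Egr1 are lowest in replicate 1 and highest in replicate 3 of every group, while Fosl2 and Maff separate early from the other 3 groups.

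Fos encodes the Fos protein, which dimerises with Jun proteins. It stood at 288, 489 and 648 CPM in early replicates 1, 2 and 3, and at 335, 661 and 906 in intermediate. Full libraries had 494, 721 and 819 CPM and BEC libraries 651, 881 and 1011. Early and BEC did not overlap, while every other pair of groups did. The spread within a group was wide and followed the replicate number, as replicate 1 was lowest and replicate 3 highest in all 4 groups. Fos was higher in BEC than in early (edgeR adjusted p = 0.0395, with a log2 fold change of 0.84 and an SE of 0.34). The threshold was missed without early replicate 1 (0.58, adjusted p = 0.146) or BEC replicate 3 (0.69, 0.117), where the fold change was smaller. It was also missed without early replicate 2 (0.85, adjusted p = 0.0796), intermediate replicate 2 (0.83, 0.0513) or BEC replicate 2 (0.81, 0.0805), where the fold change stayed close to 0.84. None of the 3 successive steps was called by group alone, with log2 fold changes of 0.42, 0.10 and 0.32, but the first was called with the replicate number as a block (edgeR adjusted p = 0.0194).

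Fosb encodes a second Fos protein with the same partners. Its level was 36.7, 162 and 284 CPM in early replicates 1, 2 and 3, and 105, 379 and 623 in intermediate. In full it was 185, 347 and 551 CPM, and in BEC 148, 300 and 402. All pairs of groups overlapped, and the highest library of a group exceeded its lowest by more than the group means differed. Intermediate against early gave a log2 fold change of 1.20 (SE 0.68, edgeR adjusted p = 0.153), which was not called by group alone but was called with the replicate block (adjusted p = 0.000381).

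Fosl1, encoding Fra-1, was near the limit of detection. It had 9, 3 and 1 counts in early libraries, 7, 8 and 11 in intermediate, 7, 22 and 26 in full and 10, 21 and 26 in BEC, or at most 1.19 CPM in any library. The floor of 3 counts corresponds to between 0.128 and 0.273 CPM, and 2 early libraries were at or under it. It was not called in any comparison of the TMM-scaled fit of all 12 libraries by group (BEC against early, log2 fold change 1.28, SE 0.67, edgeR adjusted p = 0.100). It passed without early replicate 1, which held 9 of the 13 early counts, for BEC against early (2.32, adjusted p = 0.0238) and for full against early (2.18, adjusted p = 0.0334). Full against early passed without full replicate 1 as well (1.55, adjusted p = 0.0479). With the 4 libraries numbered 1 left out, an alternative chosen after the data were seen, both comparisons passed (2.61, adjusted p = 0.00489, and 2.58, adjusted p = 0.00545). Scaled to library totals, which moved the median of all genes up in the same comparisons, Fosl1 passed for BEC against early (2.14, edgeR adjusted p = 0.00857) and for full against early (adjusted p = 0.0130). The gene overlaps Ccdc85b on the opposite strand, and whether the counting used strand is not given in the sources used here.

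Fosl2, encoding Fra-2, changed at both conversion steps. It stood at 40.4, 24.2 and 31.2 CPM in early replicates 1, 2 and 3, at 56.5, 59.3 and 70.6 in intermediate, at 82.1, 112 and 130 in full and at 91.8, 127 and 136 in BEC. The early, intermediate and full groups did not overlap, and full and BEC did. It rose from early to intermediate (edgeR adjusted p = 0.00144, log2 fold change 0.96, SE 0.21) and again from intermediate to full (0.80, SE 0.20, adjusted p = 0.00563). BEC against full was not called (0.13, SE 0.20, adjusted p = 0.731). From early to BEC it was 3.70-fold higher (edgeR adjusted p = 1.89e-06).

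Jun encodes the central AP-1 partner and is a target of the kinase JNK. Jun stood at 605, 951 and 1183 CPM in early replicates 1, 2 and 3, at 931, 1483 and 1687 in intermediate, at 1006, 1365 and 1455 in full and at 730, 1084 and 1229 in BEC. All groups overlapped. The mean was highest in intermediate, and its difference from early missed the threshold (log2 fold change 0.58, SE 0.27, edgeR adjusted p = 0.0828). With the replicate block it passed (adjusted p = 9.59e-05), as did the lower level in BEC than in full (0.0120). The antisense gene Junos, which overlaps Jun, had 694 counts over all 12 libraries.

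Junb encodes a Jun relative that can oppose Jun at some targets. It stood at 656, 565 and 646 CPM in early replicates 1, 2 and 3, at 753, 757 and 719 in intermediate and at 828, 983 and 857 in full. BEC replicate 1 had 503 CPM, below every other library, while BEC replicates 2 and 3 had 918 and 960. Early, intermediate and full did not overlap. Junb rose from early to full (log2 fold change 0.52, SE 0.19, edgeR adjusted p = 0.0236), a call lost without early replicate 2 (adjusted p = 0.0893) or full replicate 2 (0.0797). Neither single step was called. Junb overlaps Prdx2 on the opposite strand, which had 41936 counts in all.

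Jund encodes the Jun protein usually found in resting cells. It stood at 207, 164 and 228 CPM in early replicates 1, 2 and 3, at 227, 269 and 250 in intermediate, at 168, 172 and 178 in full and at 88.2, 142 and 154 in BEC. Its level was highest in intermediate and lowest in BEC, and neither full and intermediate nor BEC and full overlapped. It fell from intermediate to full (log2 fold change -0.53, SE 0.17, edgeR adjusted p = 0.0257). The fall no longer passed when libraries were scaled to their totals (-0.33, adjusted p = 0.148). It was also lost without intermediate replicate 2 (adjusted p = 0.0906), intermediate replicate 3 (0.0582), full replicate 1 (0.0706), full replicate 2 (0.0697) or full replicate 3 (0.0533). It was lower in BEC than in early on the TMM scale (-0.64, SE 0.17, edgeR adjusted p = 0.00457), but when scaled to library totals the sign turned (0.23, adjusted p = 0.243). That scaling moved all genes alike, with the median of all genes going from 0.14 to 1.004 in this comparison. Relative to that median Jund stood at -0.78 with either scaling. In full against early the sign turned too (-0.21 to 0.65), and relative to the median Jund stood at -0.35 with both. For intermediate against early, not called on the TMM scale (0.32, edgeR adjusted p = 0.137), library totals gave 0.98 (adjusted p = 0.000234), and the value relative to the median was 0.26 with both.

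Atf3 encodes an ATF family protein that pairs with Jun proteins and is induced by many stresses. It had the widest spread of the 10 genes. Replicates 1, 2 and 3 had 43.1, 214 and 304 CPM in early, 77.8, 425 and 611 in intermediate, 109, 363 and 539 in full and 54.0, 186 and 295 in BEC. All groups overlapped, and no comparison was called by group alone (intermediate against early, log2 fold change 0.99, SE 0.80, edgeR adjusted p = 0.319). With the replicate block, intermediate against early (adjusted p = 2.72e-05) and BEC against full (8.39e-05) were called. The SD of its log2 CPM within groups was 1.40, against a median of 0.22 over all genes tested and 0.41 for Jun.

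Maff encodes a small Maf protein, which lacks an activation domain and partners NRF and other leucine zipper proteins. It stood at 28.7, 20.6 and 29.1 CPM in early replicates 1, 2 and 3, at 78.8, 75.1 and 82.4 in intermediate, at 69.2, 83.2 and 97.8 in full and at 36.2, 52.6 and 65.1 in BEC. Maff separated early from all other groups without overlap, and BEC from full and intermediate. It rose 3.01-fold at the first step (edgeR adjusted p = 1.34e-05, log2 fold change 1.59, SE 0.20), and the second step was not called (0.08, SE 0.19, adjusted p = 0.759). It was 1.62-fold lower in BEC than in full (-0.70, SE 0.19, adjusted p = 0.0154). That last call was lost without full replicate 3 (adjusted p = 0.0781) or BEC replicate 1 (0.0539). BEC still exceeded early (0.97, SE 0.20, edgeR adjusted p = 0.000501).

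Egr1 encodes a zinc finger factor outside the AP-1 family that is induced by the same signals. It stood at 463, 744 and 813 CPM in early replicates 1, 2 and 3, at 680, 1221 and 1398 in intermediate, at 1105, 1764 and 1850 in full and at 855, 1393 and 1544 in BEC. Both full and BEC were above early without overlap. Egr1 was 2.34-fold higher in full than in early (edgeR adjusted p = 0.00241, log2 fold change 1.22, SE 0.30) and 1.88-fold higher in BEC than in early (0.91, SE 0.30, adjusted p = 0.0143). The second call was lost without early replicate 1 (adjusted p = 0.0602) or BEC replicate 3 (0.0570). The first step missed the threshold (0.71, SE 0.30, adjusted p = 0.0606). With the replicate block all 3 steps were called (edgeR adjusted p = 1.05e-05, 0.000135 and 0.0106).

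The replicate number was examined next. The labels number the libraries 1 to 3 in each group without saying what the numbers mark. In the deposited counts the library names run consecutively through the 4 groups of number 1, then number 2, then number 3. What that order marks is not given either. Fos, Fosb, Jun, Atf3 and Egr1 were below their group mean in replicate 1 and above it in replicates 2 and 3, in 4 of 4 groups each. For Atf3 the deviation of replicate 1 lay between -1.81 and -1.35 log2 units in the 4 groups, and that of replicate 3 between 0.96 and 1.16. For Egr1 replicate 1 lay between -0.63 and -0.47. The other 5 genes had no such order in every group. In early cells Fosl1, Fosl2 and Junb were highest in replicate 1, whereas in full and in BEC all 10 genes were lowest in replicate 1, and 9 of 10 in full and 10 of 10 in BEC were highest in replicate 3. Above their group mean in replicate 1 were 5, 2, 0 and 0 of the 10 in early, intermediate, full and BEC. Over all genes these shares were 47.7%, 50.5%, 53.1% and 47.0%.

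**Figure D2:**
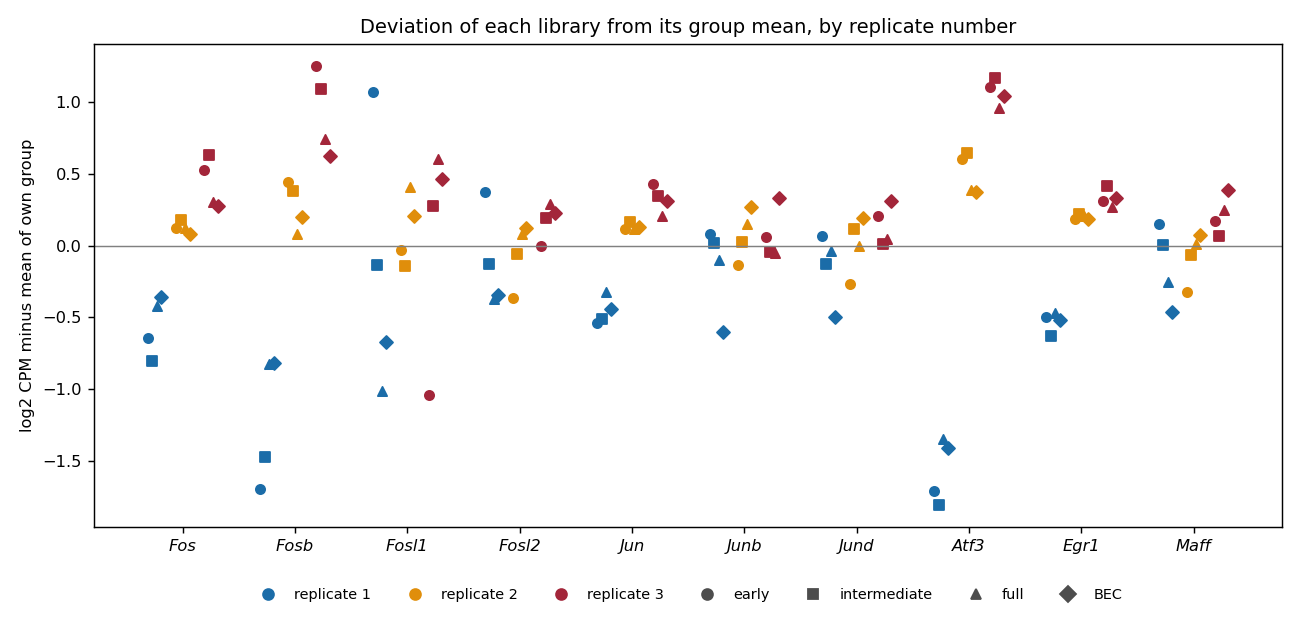
Deviation of each library from its own group mean in log2 CPM, for the 10 genes, with color for the replicate number and marker shape for the group. For Fos, Fosb, Jun, Atf3 and Egr1 the 4 points of replicate 1 lie below 0 and those of replicates 2 and 3 above it, and the largest shifts are those of Atf3.

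An F test of the replicate number, made in the edgeR fit with replicate number as a term and chosen after these deviations were seen, called 571 genes (3.52% of those tested). Among them were 5 of the 10 genes: Atf3 (adjusted p = 3.24e-07), Egr1 (5.90e-05), Fosb (0.000308), Jun (0.000366) and Fos (0.000805). Relative to replicate 1, Atf3 was 4.16-fold higher in replicate 2 and 6.16-fold higher in replicate 3, averaged over the groups. Fosb was 2.67-fold and 4.23-fold higher, Fos 1.59-fold and 1.98-fold, Egr1 1.65-fold and 1.82-fold. Jun was higher by 0.58 and 0.78 log2 units. Maff (edgeR adjusted p = 0.243), Jund (0.443), Fosl2 (0.467), Junb (0.630) and Fosl1 (0.779) were not called.

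Other immediate early genes were then read in the same libraries. Of 44 such genes tested (46 listed), 23 were called for the replicate number by the same edgeR F test, and all 23 were higher in both replicates 2 and 3 than in replicate 1. They included Egr2 (log2 difference 3.10 and 4.06, adjusted p = 1.72e-08) and Egr3 (3.30 and 4.07, adjusted p = 3.90e-07), relatives of Egr1, and the phosphatase gene Dusp5 (1.88 and 2.54, adjusted p = 7.05e-06). In BEC, 43 of the 44 were lowest in replicate 1, in full 35, in intermediate 32 and in early 25. Above their group mean in replicate 1 were 15, 8, 7 and 1 of the 44 in early, intermediate, full and BEC. Over all genes these shares were 47.7%, 50.5%, 53.1% and 47.0%. Heat shock genes, which dissociation can also induce, were read beside them. Of 16 tested, 6 were called, all higher in replicates 2 and 3: Hspa8, Hspd1, Hsph1, Dnajb1, Dnajb4 and Hspa5. Hspa1a, which encodes an inducible HSP70, Hspa1b and Hspb1 were among those not called. Of these 16, 14 were lowest in replicate 1 in early and 14 in intermediate, 12 in full and 13 in BEC. Above their group mean in replicate 1 were 1, 1, 3 and 2 of the 16, in the same order of groups. Srf, encoding the serum response factor that drives many immediate early genes, was called too (log2 difference 0.91 and 1.24, adjusted p = 8.11e-06). It was 1 of 2 called among 26 tested genes upstream of AP-1, and the other, Elk3, was lower in replicates 2 and 3. Of 16 related leucine zipper genes 2 were called, both higher. Of 15 textbook AP-1 targets 3 were called, 2 higher and 1 lower. The share called over all genes was 3.52%.

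**Figure D3:**
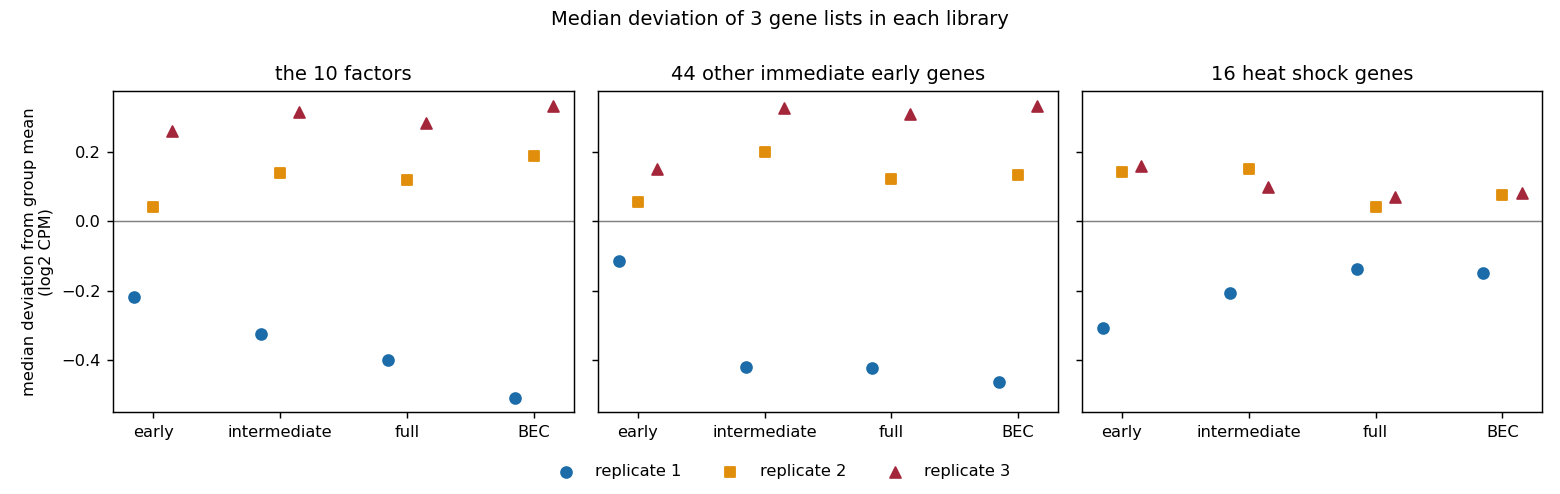
Median deviation from the group mean in log2 CPM of the 10 genes, of 44 other immediate early genes and of 16 heat shock genes, for each library. Points are libraries, marked by replicate number. In all 3 panels replicate 1 lies below 0 in every group, between -0.51 and -0.12 for the first 2 lists and between -0.31 and -0.14 for heat shock genes.

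Markers of other cells moved with the replicate number as well. The summed level of 11 macrophage markers was lowest in replicate 1 in all 4 groups, at 24.9 CPM against 27.3 and 26.1 in early and at 133 against 151 and 158 in BEC. In full it was 66.0 against 78.7 and 94.5 CPM, and in intermediate 30.6 against 37.3 and 40.6. Csf1r made up 128 CPM of it in BEC replicate 1. Without Csf1r the BEC libraries had 5.11, 18.2 and 38.4 CPM of the other macrophage markers, and none of the 11 genes was at 0 throughout a group. Endothelial markers (9 genes, none at 0) were lowest in replicate 1 in early (16.0 CPM against 36.8 and 29.8), intermediate (8.30 against 18.6 and 25.1) and BEC (5.01 against 7.73 and 11.7), but not in full (5.28 against 4.95 and 6.87). The summed level of 10 stellate cell and fibroblast markers, none at 0, was 144 CPM in replicate 1 of early against 317 and 372 in replicates 2 and 3. It lay between 1837 and 2529 in intermediate, 2993 and 3459 in full and 1696 and 2267 in BEC, where most of it was Rgs5. Without Rgs5 it was also lowest in replicate 1 in intermediate (64.6 against 106 and 188 CPM), but not in full (61.3 against 48.6 and 84.4) or BEC (74.8 against 62.3 and 107). Neutrophil markers did not exceed 1.13 CPM, T and NK cell markers 1.42 or B cell markers 46.4 in any library, and of these lists Ly6g was at 0 in early, full and BEC, Ms4a1 in all groups and Cd3d in all but BEC. The B cell sum was nearly all Igkc (45.1 CPM in the highest library). Erythroid markers reached 33.3 CPM in early, of which Alas2 was 32.9, and Hba-a1, Hba-a2 and Hbb-bt were at 0 there. Total counts and the mitochondrial share did not have replicate 1 at the same end in all groups. The part of these values in the levels of the 10 genes was not tested.

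The groups were then compared for the list as a whole, beside the share of all genes called. The edgeR fit by group alone called 4 of the 10 genes among the 4 groups (Fosl2, Jund, Egr1 and Maff), where 75.6% of all genes were called. At the first step, intermediate against early, 2 were higher (Fosl2 and Maff) and 0 lower. Over all genes 54.4% were called there, 28.7% higher and 25.7% lower, and the median log2 fold change was 0.65 for the 10 and 0.06 for all genes. Full against intermediate gave 1 higher (Fosl2) and 1 lower (Jund), against 40.7% of all genes (20.8% higher, 19.8% lower), with medians of 0.09 and 0.01. BEC against full gave 0 higher and 1 lower (Maff), against 21.3% of all genes (10.7% higher, 10.6% lower), with medians of -0.32 and 0.00. BEC against early gave 4 higher (Fos, Fosl2, Egr1 and Maff) and 1 lower (Jund), against 73.1% of all genes, 40.0% higher, 33.0% lower, with medians of 0.83 and 0.14. Full against early gave 4 higher (Fosl2, Junb, Egr1 and Maff) and 0 lower, against 71.2% (39.1% higher, 32.1% lower), with medians of 0.997 and 0.141. By ranges, 3, 3, 2, 5 and 4 of the 10 genes did not overlap between the groups in the same order of comparisons, against 58.7%, 55.0%, 39.6%, 74.7% and 74.4% of all genes. Comparisons with early share the same 3 early libraries, and those with full the same full libraries.

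With the replicate number as a block, which pairs the libraries by number, more of the genes passed at the 3 successive steps. At the first step 7 were called, all higher, against 57.2% of all genes (30.1% higher, 27.1% lower). Besides Fosl2 and Maff these were Fos (log2 fold change 0.39, SE 0.13, edgeR adjusted p = 0.0194), Fosb (1.25, SE 0.23, adjusted p = 0.000381), Jun (0.59, SE 0.09, adjusted p = 9.59e-05), Atf3 (0.95, SE 0.13, adjusted p = 2.72e-05) and Egr1 (0.69, SE 0.08, adjusted p = 1.05e-05). Their fold changes stayed close to those of the fit by group alone, while their standard errors were smaller. Fosl1, Junb and Jund were not called there. At the second step Egr1 was called in addition (0.54, SE 0.08, edgeR adjusted p = 0.000135), which made 2 higher and 1 lower against 45.0% of all genes (22.9% higher, 22.1% lower).

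Between BEC and full, the block gave 5 genes, all lower in BEC, against 25.3% of all genes (12.6% in each direction). In the same fit 74.8% of all genes were called for BEC against early, 73.1% for full against early and 77.9% among the 4 groups. In the comparisons with early that skip a stage, at least 1 pair of same-numbered libraries correlated below 0.1. The block is 1 term for all 12 libraries, so a pairing by number would hold in all comparisons or in none. Its calls for those that skip a stage are given with the other settings. Atf3 was lower in BEC than in full, with a log2 fold change of -0.95 (SE 0.13, edgeR adjusted p = 8.39e-05). Its mean was 337 ± 216 CPM in full, 178 ± 121 in BEC and 187 ± 133 in early (SD, n = 3). Jun (-0.35, SE 0.09, adjusted p = 0.0120), Egr1 (-0.32, SE 0.08, adjusted p = 0.0106) and Jund (-0.45, SE 0.15, adjusted p = 0.0410) were lower in BEC than in full as well, beside Maff. Fos was the other way (0.33, SE 0.13) without passing the threshold (edgeR adjusted p = 0.0764). When the 4 libraries numbered 1 were left out, an alternative chosen after the data were seen, 7, 4 and 2 genes were called at the 3 steps, against 52.2%, 43.8% and 21.8% of all 16343 genes tested in that fit.

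**Figure D4:**
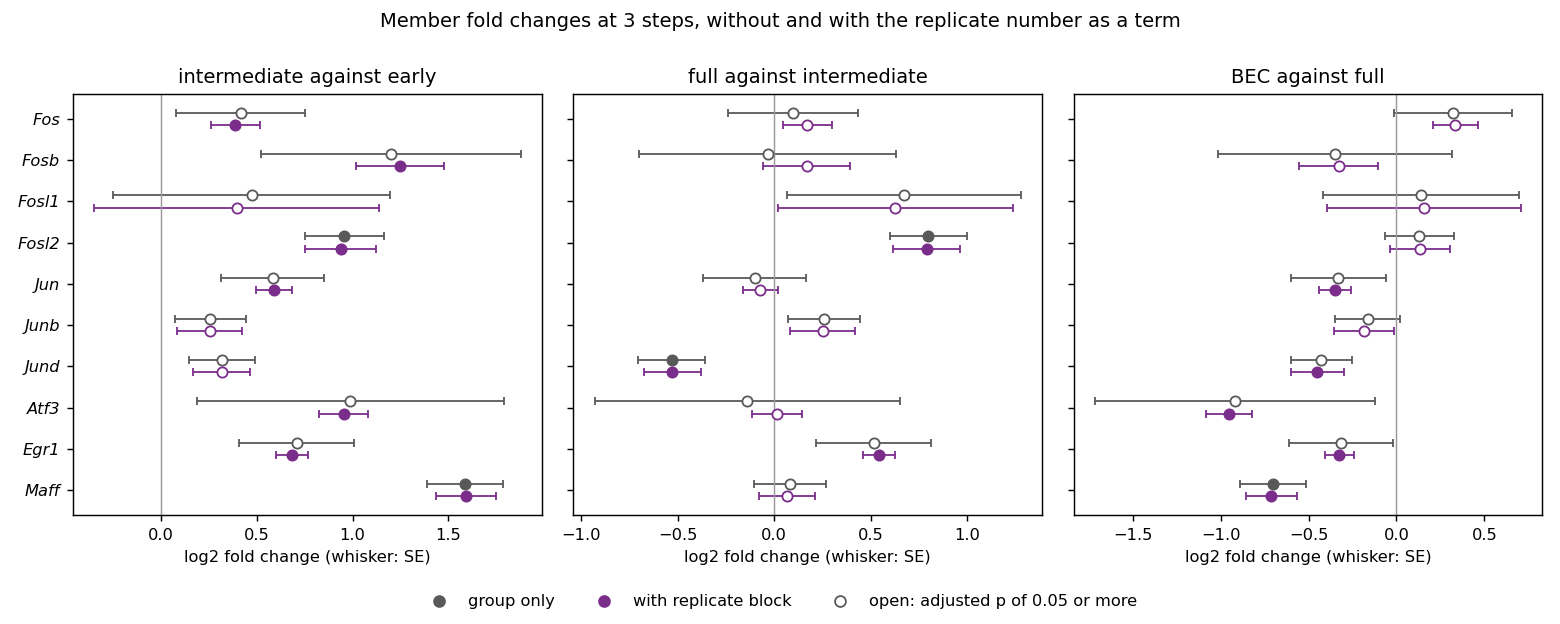
Log2 fold change of the 10 genes at 3 steps, from edgeR fits by group alone (grey) and with a replicate block (purple). Points are estimates, whiskers are SE, and filled points have an adjusted p under 0.05. The estimates of the 2 fits lie close together, and Atf3, Fosb, Fos, Jun and Egr1 have narrower whiskers with the block.

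Around the 10 genes, 44 other immediate early genes were counted at each step. Of all genes tested, the share called at the 3 steps was 54.4%, 40.7% and 21.3% by group alone and 57.2%, 45.0% and 25.3% with the block. At the first step 21 were higher and 7 lower by the fit of groups alone, with a median log2 fold change of 0.84, and 26 and 12 with the block, against 54.4% and 57.2% of all genes. Ccn2, encoding a matricellular protein, rose from 8.62 ± 2.55 to 256 ± 38.7 CPM (log2 fold change 4.90, edgeR adjusted p = 1.22e-09), and Egr3 from 2.35 ± 1.86 to 51.9 ± 44.5 CPM (4.48, adjusted p = 0.0122). Cebpb, a leucine zipper factor of liver, fell from 249 ± 81.6 to 79.1 ± 14.3 CPM, and the kinase gene Plk3 from 360 ± 72.3 to 115 ± 43.7 (SD, n = 3 each). At the second step 4 were higher and 5 lower, and with the block 10 and 10. Ccn2 rose to 812 ± 57.0 CPM and Gadd45b, a stress response gene, from 24.5 ± 4.13 to 69.5 ± 11.2, while Plk3 fell to 21.6 ± 5.37 and the phosphatase gene Dusp4 from 109 ± 10.8 to 63.5 ± 5.64. BEC against full gave 3 higher and 2 lower, and with the block 6 and 14. Klf4 rose from 7.04 ± 1.24 to 13.3 ± 3.71 CPM and Zfp36l2 from 264 ± 25.2 to 495 ± 94.7, whereas Dusp4 (29.1 ± 2.81 in BEC) and Zfp36l1 (856 ± 133 in full, 542 ± 54.9 in BEC) fell. Klf4 missed the threshold when full replicate 1 or 2 or BEC replicate 2 or 3 was omitted (adjusted p by edgeR 0.0967, 0.0796, 0.0650 and 0.122). Zfp36l1 and Zfp36l2 encode proteins that speed the decay of AU-rich mRNAs.

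Related leucine zipper genes (20 listed, 16 tested) were mixed. At the first step 5 were higher and 8 lower, against 54.4% of all genes, with Creb1 (30.7 ± 8.77 to 54.7 ± 6.67 CPM) and Atf7 (49.0 ± 2.92 to 76.2 ± 4.34) among the higher. Atf5, encoding an ATF family protein, fell from 249 ± 84.5 to 73.0 ± 6.75 CPM. At the second step 1 was higher (Atf7, to 99.1 ± 8.24 CPM) and 2 lower, among them Atf5 (to 32.7 ± 4.31), against 40.7% of all genes. With the block 2 were higher and 3 lower, against 45.0%. BEC against full gave 0 higher and 3 lower, against 21.3% of all genes. Among the lower were Atf5 (15.2 ± 3.02 CPM in BEC) and Maf (20.9 ± 10.5 in full, 9.77 ± 0.758 in BEC). Maf missed the threshold when full replicate 1 (log2 fold change -0.62, adjusted p by edgeR 0.109), BEC replicate 1 (0.0609) or BEC replicate 3 (0.0597) was omitted.

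Genes upstream of AP-1 (27 kinases, serum response factor and partners, 26 tested) gave 10 higher and 4 lower at the first step, against 54.4% of all genes. Elk3, encoding a partner of serum response factor, rose from 2.32 ± 0.347 to 48.7 ± 14.0 CPM, and Map3k1, a kinase above JNK, from 94.0 ± 14.0 to 340 ± 41.3. Map2k2 and Map2k3, kinases of the ERK and p38 branches, fell from 223 ± 24.1 to 131 ± 3.29 and from 115 ± 13.8 to 60.3 ± 3.36 CPM. At the second step 5 were higher and 4 lower, against 40.7% of all genes. The p38 genes Mapk13 (0.623 to 4.53 CPM in intermediate libraries, 17.7 ± 2.58 in full) and Mapk12 (4.30 ± 1.82 to 19.6 ± 4.94) rose, while Map3k5 (128 ± 8.96 to 85.7 ± 4.58) and Map2k2 (to 91.3 ± 7.18) fell. Between BEC and full 2 were higher and 2 lower, against 21.3% of all genes, and with the block 4 and 5, against 25.3%. Rps6ka1 (51.2 ± 4.70 to 89.3 ± 6.44 CPM) and Mrtfa (43.7 ± 2.47 to 56.0 ± 2.45) were the higher, Map3k5 (to 52.9 ± 5.59) and Mrtfb (105 ± 6.08 to 65.8 ± 8.44) the lower. The Mrtfa call was lost without full replicate 2 or 3 or BEC replicate 1 or 3 (edgeR adjusted p = 0.0932, 0.0712, 0.0580 and 0.0675) and without the low-count filter (0.0904), and that of Map2k2 at the first step when scaled to library totals (0.363).

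Of 21 textbook AP-1 targets, 15 were tested. At the first step 8 were higher and 3 lower, against 54.4% of all genes, with a median log2 fold change of 1.71. Lif, a cytokine gene, rose from 5.83 ± 0.874 to 59.0 ± 27.4 CPM and Spp1, encoding osteopontin, from 1237 ± 504 to 9866 ± 1523, while Ccnd1 (151 ± 27.6 to 74.4 ± 8.21) fell. Hmox1 was called lower too, but on 1 library: early replicates 1, 2 and 3 had 112, 31.3 and 26.5 CPM against 27.0 ± 3.65 in intermediate, and without early replicate 1 the log2 fold change was -0.10 (edgeR adjusted p = 0.609). Hmox1 also missed the threshold when intermediate replicate 2 or 3 was omitted (adjusted p by edgeR 0.0958 and 0.0856), in a fit of the 6 early and intermediate libraries alone (0.0892) and when scaled to library totals (0.372). At the second step 7 were higher and 2 lower, against 40.7% of all genes. Ccnd1, encoding cyclin D1, rose to 234 ± 20.9 CPM, and Mmp7, encoding matrilysin, had 0 counts in early and 7 in all in intermediate, and 62.2 ± 25.9 CPM in full. Between BEC and full 5 were higher, among them Mmp7 (652 ± 106 CPM in BEC) and Plau (9.08 ± 1.68 CPM in full, 33.5 to 48.8 in BEC), and 1 was lower (Tgfb1, 31.0 ± 3.46 to 18.6 ± 0.831). Of all genes 21.3% were called between BEC and full. The block gave 6 higher and 2 lower of these targets, against 25.3% of all genes. Several of these genes have other known regulators, and all levels are SD over 3 libraries.

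Heat shock genes encode chaperones that are induced by protein damage. At the first step 5 of 16 were higher and 4 lower, against 54.4% of all genes, and with the block 5 and 7, against 57.2%. Hspa1a, encoding an inducible HSP70, rose from 3.77 ± 1.84 to 39.5 ± 7.68 CPM and Hspb1 from 52.5 ± 5.68 to 214 ± 36.3, while the mitochondrial chaperone genes Hspd1 (562 ± 52.3 to 220 ± 30.6) and Hspe1 (129 ± 14.7 to 62.1 ± 7.10) fell. At the second step 0 were higher and 4 lower, against 40.7% of all genes, and with the block 0 and 7, against 45.0%. Among the lower were Hspe1 (to between 36.4 and 41.3 CPM) and Hspa8 (1497 ± 315 to 971 ± 137). The Hspa8 call was lost without intermediate replicate 2 or 3 or full replicate 1 (edgeR adjusted p = 0.0671, 0.0682 and 0.0748) and when scaled to library totals (0.0879). Between BEC and full 0 were higher and 3 lower, against 21.3% of all genes, and with the block 1 and 3, against 25.3%. Among the lower were Hspb1 (187 ± 26.2 to 68.9 ± 10.1 CPM) and Dnajb4 (94.9 ± 23.0 to 51.7 ± 5.58).

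The genes with the most similar profile over the 12 libraries were taken as the 2 with the smallest mean absolute difference from each factor in centred log2 CPM, out of 9955 genes with a mean of at least 10 CPM. The pattern of Egr1 was nearest to Dusp1, a MAP kinase phosphatase gene (difference 0.10 log2 units), and Ppm1l (0.17). That of Fosl2 was nearest to Nfkbia (0.13), which encodes an inhibitor of NF-kB, and Arhgap39 (0.17). For Maff these were Dusp10 (0.14), a phosphatase gene of JNK and p38, and A330074K22Rik (0.15). For Fos they were Hes1 (0.19), a Notch target, and Bahcc1 (0.21), and for Jun Ppp1r15a (0.16) and Usp31 (0.16). Fosb was nearest to Dusp5 (0.33) and Dusp1 (0.43), and Atf3 to Egr2 (0.51) and Dusp5 (0.52), at larger distances. Junb was nearest to Tsen54 (0.09) and Fancg (0.09), Jund to Rpl22l1 (0.11) and Zfp444 (0.11), and Fosl1 to Rnd1 (0.33) and Ccn5 (0.36). Hes1 stood at 147 ± 61.6, 222 ± 81.3, 290.4 ± 80.6 and 338 ± 97.8 CPM in early, intermediate, full and BEC (SD, n = 3). The order of its group means was that of Fos, but Hes1 was picked for its similarity to Fos, so this is not a separate result.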

How the data were processed

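For 12 libraries the authors deposited raw read counts, 1 row for each gene symbol. The submitters' processing notes name STAR 2.7.10b, featureCounts 2.0.1, DESeq2 and build GRCm39, with annotation and strandedness not given in the sources used here. A second deposited table holds a normalised signal, equal to those counts over a library's size factor (0.623 to 1.33), and was used only to check that. Of 53599 genes, 16210 passed filterByExpr by group. Counts were analysed in R 4.3.3 with edgeR 4.0.16 (TMM factors, 1 quasi-likelihood fit of all 12 libraries by group) with a threshold of 0.05 on p-values adjusted by Benjamini and Hochberg's method across the genes tested. Log2 CPM used a prior count of 2. DESeq2 1.42.0 was an alternative. The procedure was tested on simulated data.

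Deviations from group means correlated across genes between same-numbered libraries with r between 0.121 and 0.293 (intermediate and early), 0.137 and 0.322 (full and intermediate) and 0.170 and 0.257 (BEC and full). For BEC and early (0.0442 to 0.145) and full and early (0.0960 to 0.209) at least 1 pair was under 0.1. These ranges overlap, and they do not settle whether the numbers pair the libraries. The block was 1 term of the fit for every comparison.

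The members and lists were chosen with earlier results of these data known. All members are named. From each list and step, up to 2 called genes in each direction with the largest fold change and at least 10 CPM in the higher group are named. Some genes that this rule names are not reported here. Alternatives were other scaling, filters, fits of 6 libraries, a replicate block and leaving out each library. Leaving out all 4 libraries numbered 1 and the F test of the replicate number were added after the data were seen. Figures used matplotlib 3.10.9.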

Additional observations from a re-analysis of the deposited data

How the results depend on the processing

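The members called changed with several settings. When scaled to library totals, 8 were called at the first step (intermediate against early), 1 at the second (full against intermediate), 8 between BEC and early, 9 between full and early and 8 among the 4 groups, against 69.4%, 44.5%, 82.0%, 81.2% and 84.4% of all genes. Over all genes that scaling moved the median to 0.72, 0.21, 1.004 and 1.005 log2 units in these 4 comparisons, and the share of calls that were higher to 85.6%, 72.6%, 80.3% and 81.8% from 52.8%, 51.2%, 54.8% and 54.9%. Without a low-count filter, 8 were called at the first step, 3 at the third (BEC against full), 8 between full and early and 9 among the 4 groups, against 28.5%, 11.9%, 39.5% and 43.3% of 30230 genes. With the replicate block, 7, 3 and 5 were called at the 3 steps, 6 between BEC and early, 8 between full and early and 8 among the 4 groups. Over all genes the shares were 57.2%, 45.0%, 25.3%, 74.8%, 73.1% and 77.9%. For full against early Atf3 (0.97), Fosb (1.42), Fos (0.56) and Jun (0.52) were called with the block and not by group alone. Fosb was so for BEC against early too. Without the libraries numbered 1, the counts were 7, 4 and 2 at the 3 steps, 9 between full and early and 10 among the 4 groups, against 52.2%, 43.8%, 21.8%, 70.0% and 74.9% of all genes.

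Signs turned for the following values, of which Jund for BEC against early was called on the TMM scale and Jund for full against early with library totals. For full against intermediate, Fosb gave 0.0066 with DESeq2, 0.0062 with median-of-ratios factors, 0.18 with library totals and 0.17 with the replicate block. Atf3 gave 0.069 with totals and 0.015 with the block, and Jun 0.10 with totals. Without the libraries numbered 1, Fos gave -0.024 there, and Junb 0.029 for BEC against full. For BEC against early, Atf3 gave 0.79 with totals and 0.016 with the block, and Jund 0.23 with totals. Jund for full against early gave 0.65 with totals. The causes were not tested.

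Leaving out 1 library at a time gave 2 to 5 members at the first step (5 without intermediate replicate 1 or BEC replicate 1), 1 to 3 at the second, 0 to 2 at the third (0 without full replicate 3 or BEC replicate 1), 3 to 6 between BEC and early, 3 to 6 between full and early and 3 to 5 among the 4 groups. Over all genes the same fits called 8123 to 9059, 5276 to 7056, 2644 to 3860, 11438 to 12083, 10963 to 11848 and 11975 to 12421, of 16664 to 16829 tested. With 1 library left out, signs turned for full against intermediate: Fos -0.21 to 0.44, Fosb -0.47 to 0.57, Jun -0.31 to 0.071, Atf3 -0.66 to 0.41 and Maff -0.048 to 0.20. For BEC against full they did so for Fosb (-0.69 to 0.088), Fosl1 (-0.26 to 0.47), Fosl2 (-0.037 to 0.28) and Junb (-0.32 to 0.078). For BEC against early they did so for Jun (-0.073 to 0.38) and Atf3 (-0.64 to 0.47). Fosl1 had no value with a minimum mean of 50 counts. The number of all genes called stayed within 1.5 times its value in every setting run. Fosl1, with 1 to 26 counts a library, had the fewest counts of the 10. The same settings were applied to the named genes of the other lists after the data were seen.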

Other observations

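The 12 genes with the smallest p for the replicate number (edgeR F test over 16210 genes, chosen after their values were seen) included Egr2, Atf3, Egr3, Dusp5, Srf, Ccn1 and Trib1 from the lists above. They also included genes of liver metabolism. Car3, a carbonic anhydrase gene, was higher by 0.97 and 2.62 log2 units in replicates 2 and 3 than in replicate 1. Thrsp and Scd1, genes of fatty acid synthesis, were higher by 1.30 and 2.45 and by 0.78 and 1.76, the urinary protein gene Mup3 by 0.90 and 1.35, and Inhba, encoding an activin subunit, by 1.01 and 1.25. Of the 571 genes called, 351 were higher in both replicates 2 and 3 than in replicate 1 and 187 lower in both.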
